A study of Mus musculus with 2 samples.

Results

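The imprinted miRNA genes described here, 5 in number, belong to 3 loci of the mouse: Mir335 of the Mest locus, Mir483 and Mir675 of the Igf2-H19 locus, and Mir296 and Mir298 of the Nespas locus. They were taken by gene identifier, through the mouse GENCODE annotation on GRCm38, as 5 of the 1973 miRNA genes counted in each library. All 5 were found. MicroRNA sequencing had been applied to the intestine of 2 newborn pups of strain B6NCrl at postnatal day 0, called pup 1 and pup 2, with 1 library each. Both pups came from the same pregnant female, no treatment or genotype separates them, the labels name no gut segment, and sex was not collected. The series therefore has 1 group, and its values give the level of each miRNA gene and the distance between littermates.

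Imprinted genes are expressed mainly from the allele of 1 parent, and many of them act on fetal and newborn growth. Mest and Igf2 are expressed from the paternal allele, H19 from the maternal allele, and Nespas, an RNA antisense to part of the Gnas locus, from the paternal allele. Their miRNAs are cut out of longer transcripts as hairpins, and each hairpin can yield a mature miRNA from its 5′ arm and another from its 3′ arm. The counts were made per hairpin gene, so they separate neither the arms nor the parental alleles. In whole intestine, fewer cells of a type and less RNA per cell cannot be told apart.

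The mature sequences are shown because their seeds, bases 2 to 8 from the 5′ end, are the part of a miRNA that pairs with its targets. They come from RefSeq on GRCm38.p6, where all 5 genes had a hairpin, and the seed is in capitals.

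miR-335-5p: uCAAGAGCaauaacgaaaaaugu

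miR-335-3p: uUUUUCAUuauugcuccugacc

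miR-483-5p: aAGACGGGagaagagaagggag

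miR-483-3p: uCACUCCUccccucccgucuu

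miR-675-5p: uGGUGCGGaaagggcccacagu

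miR-675-3p: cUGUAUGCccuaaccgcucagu

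miR-296-5p: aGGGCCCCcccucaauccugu

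miR-296-3p: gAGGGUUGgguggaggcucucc

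miR-298-5p: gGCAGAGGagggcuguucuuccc

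miR-298-3p: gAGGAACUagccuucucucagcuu

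The 10 mature sequences had 10 distinct seeds. None of these seeds occurred in a mature miRNA of another gene among the 1738 mature sequences of the RefSeq table, which is not complete. Mir296 and Mir298, neighbours on the chromosome, thus share no seed, and neither do Mir483 and Mir675.

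Of the 5 genes, Mir483 had the arms most unlike each other in purine content. A and G made up 95.5% of miR-483-5p, a higher share than in 99.9% of the mature sequences in the table, and 9.52% of miR-483-3p, where 0.115% of the sequences had a lower share. Mir335 was the most AU-rich of the 5: G and C made up 30.4% of miR-335-5p and 36.4% of miR-335-3p, against 50% to 68.2% in the mature sequences of the other 4 genes. Over whole hairpins, GC content was 42.9% for Mir335, 53.7% for Mir298, 58.9% for Mir483, 63.1% for Mir675 and 63.3% for Mir296. The median over the 1005 hairpins of the table was 51.7%. The hairpins of Mir335 and Mir483 are printed with both mature arms in capitals, as the extremes named above.

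Mir335 hairpin: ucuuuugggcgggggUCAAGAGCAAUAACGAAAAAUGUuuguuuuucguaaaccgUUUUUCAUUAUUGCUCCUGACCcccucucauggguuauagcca

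Mir483 hairpin: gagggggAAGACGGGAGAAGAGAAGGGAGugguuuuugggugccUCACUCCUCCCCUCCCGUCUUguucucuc

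Sequence also bears on how completely these genes were counted, because reads that mapped to several places were given to no gene. The longest run of bases that a member shared with another hairpin of the table, on either strand, was 13 for Mir483, 12 for Mir335, Mir296 and Mir298 and 11 for Mir675. Each such run is shorter than the mature miRNAs, which are 21 to 24 bases long. Among annotated transcripts, the mature sequences were found in the members' own hairpins, and those of Mir675 also in 3 transcripts of H19, its host. The search did not cover sequence outside annotated transcripts.

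Mir335 (ENSMUSG00000065501.1) lies on chromosome 6 from 30741299 to 30741396 on the plus strand of GRCm38. Mest, a protein-coding gene from 30723547 to 30748465, contains it, and the hairpin is intronic in all 7 of the Mest transcripts that span it. Mir483 (ENSMUSG00000070140.1) occupies bases 142654924 to 142654996 of chromosome 7, on the minus strand. It is intronic in all 7 Igf2 transcripts that span it, in intron 2 of 6 of them, and in the 1 spanning transcript of Gm49394, another annotated gene over the same stretch. Igf2, which encodes a fetal growth factor, runs from 142650766 to 142666816.

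Mir675 (ENSMUSG00000076275.1) lies on chromosome 7 from 142577064 to 142577147, also on the minus strand, with 77776 bases between it and Mir483. Of the 4 transcripts of H19, a long non-coding RNA, that span it, 3 hold it entirely in an exon and 1 in an intron. Mir675 was thus the only member with an exonic position. A gene count there does not separate the mature miRNA from other short pieces of H19 RNA.

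Mir296 (ENSMUSG00000065521.1) lies on chromosome 2 from 174267047 to 174267125 and Mir298 (ENSMUSG00000065410.1) from 174267504 to 174267585, both on the minus strand and with 378 bases between them. No other gene was annotated over either hairpin on either strand. Nespas, the nearest gene of their strand, runs from 174281237 to 174295436, so its annotated 3′ end lies 13651 bases upstream of Mir298. The name of the locus therefore holds for its neighbourhood, and the annotation used here does not place these hairpins inside Nespas.

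**Figure D1:**
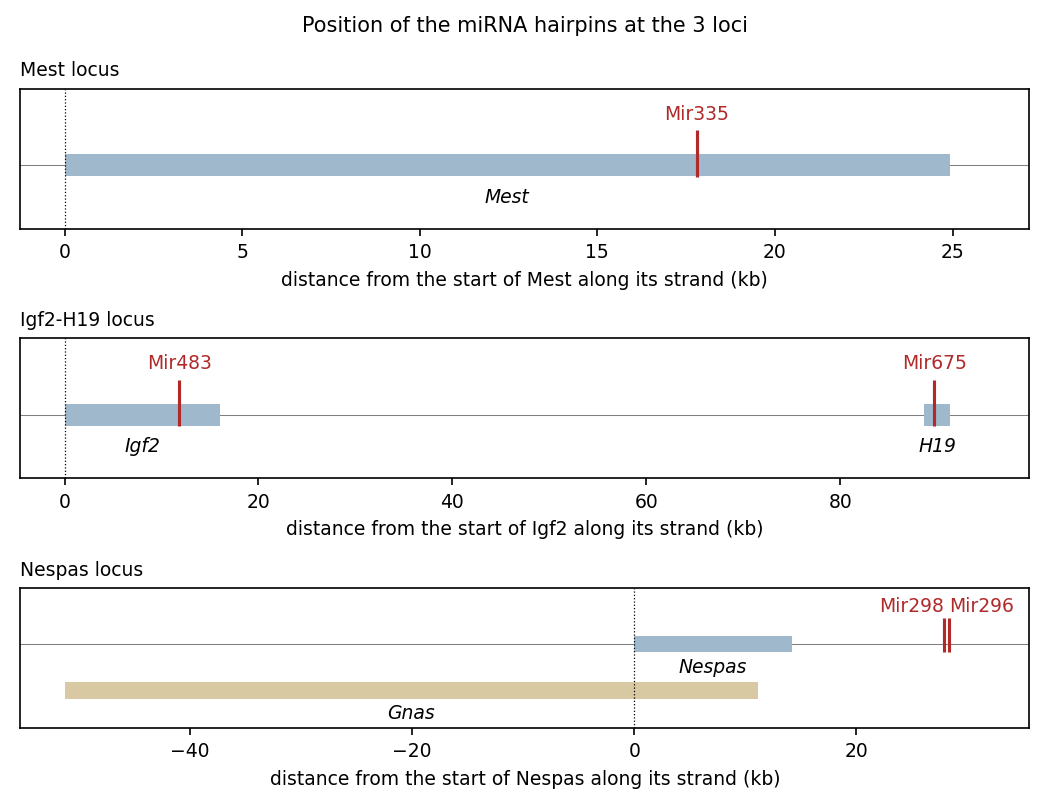
Position of the 5 hairpins (red) at the 3 loci. Each horizontal axis is the distance in kb from the start of the gene named on it, along that gene's strand; blue bars are genes on that strand and the tan bar is Gnas on the opposite strand. Mir335, Mir483 and Mir675 lie within Mest, Igf2 and H19, while Mir298 and Mir296 lie beyond the 3′ end of Nespas.

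Sequencing gave 6375694 reads for pup 1 and 8373497 for pup 2, and miRNA genes received 3567658 and 4683939 of these on their annotated strand. Reads mapped to several places were 30.3% and 29.8% of the reads. The unit of level is CPM, a gene's count scaled to 1000000 counts over all miRNA genes, and every ± is the SD over the 2 pups. A small RNA read spans the mature miRNA, so counts were not divided by gene length. Small RNA capture favours some sequences over others, and a comparison between miRNAs holds that bias, which 2 pups cannot measure. The tissue was described with marker lists chosen with earlier results of these data known, so they are no independent check of the label. All 9 miRNAs of intestinal epithelium were detected and summed to 31.0% of counts. The 3 of exocrine pancreas had 0 to 3 counts each, and 4 of the 5 neuronal genes found had 0 counts in both libraries. Several neuronal miRNAs have more than 1 gene copy and lose reads with several matches, so their counts are lower limits.

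All 5 members reached 10 counts in each library, against 15.9% of all miRNA genes, and their levels spanned a 151-fold range. Mir335 was highest by far, Mir296 and Mir298 lay close together at the next level, Mir483 was somewhat lower, and Mir675 was lowest. The 5 together took 1.79% of counts in pup 1 (95% interval 1.77% to 1.80%, exact binomial) and 1.81% in pup 2 (1.80% to 1.82%), a mean of 1.80% ± 0.0140. These intervals hold counting error of reads alone. The sources used here describe no molecular identifiers by which repeated copies of a molecule could be recognised, so such copies count as separate reads.

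Mir335, which in other settings has been studied as a suppressor of metastasis and a regulator of mesenchymal stem cells, had 53367 counts in pup 1 and 71465 in pup 2. These are 14959 and 15257 CPM, with a mean of 15108 ± 211 (n = 2). Mir335 ranked 16 of all 1973 miRNA genes in each pup, a rank among reads with a single match in the genome, since miRNAs with several gene copies lose the others. It made up 83.7% of the members' counts in pup 1 and 84.4% in pup 2, so the summed level of the 5 genes is mostly that of Mir335. Mir143, the gene of highest mean level in these libraries and a miRNA of smooth muscle, stood 10.7-fold above it.

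Mir296, known from work on blood vessel growth and on embryonic stem cells, had 3890 counts in pup 1 and 4982 in pup 2. These are 1090 and 1064 CPM, a mean of 1077 ± 18.9 (n = 2), at rank 76 of the mean level. Mir298 had 3725 and 4497 counts, or 1044 and 960 CPM, with a mean of 1002 ± 59.4 (n = 2) and rank 82. Both values of Mir298 lay below both values of Mir296.

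The ratio of these neighbours was near 1. In pup 1 Mir296 had 1.04 counts for each count of Mir298, with a 95% exact binomial interval of 0.998 to 1.09 that includes equal counts. In pup 2 the ratio was 1.11 (1.06 to 1.15). The mean log2 ratio was 0.11 ± 0.06, so the order of the pair was not resolved in pup 1, and the distance was small in both pups.

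Mir483 of the Igf2 intron, a miRNA often raised in tumours that overexpress Igf2, had 2450 counts in pup 1 and 3277 in pup 2. These are 687 and 700 CPM, with a mean of 693 ± 9.12 (n = 2) and rank 95. Mir298 exceeded it by 1.52-fold in pup 1 (95% interval 1.44 to 1.60, exact binomial) and by 1.37-fold in pup 2 (1.31 to 1.44). The levels of the 2 genes did not overlap.

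Mir675 of H19, known as a restraint on placental growth, had 362 counts in pup 1 and 462 in pup 2. These are 101 and 98.6 CPM, with a mean of 100.1 ± 2.00 (n = 2) and rank 174. Within the Igf2-H19 locus, Mir483 exceeded Mir675 by 6.77-fold in pup 1 (95% interval 6.06 to 7.58, exact binomial) and by 7.09-fold in pup 2 (6.43 to 7.84). The mean log2 ratio was 2.79 ± 0.05. Of the reads counted for these 2 genes, 12.9% in pup 1 and 12.4% in pup 2 were those of Mir675. Although the lowest of the 5, Mir675 lay well above the 3 counts that a count of 0 allows, which are 0.841 CPM in pup 1 and 0.640 CPM in pup 2, and its mean was below the median of 145 CPM over the 314 genes with at least 10 counts in each library.

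By locus, Mir335 of Mest held 84.0% ± 0.520 of the members' counts, Mir296 and Mir298 together 11.6% ± 0.526, and Mir483 and Mir675 together 4.41% ± 0.00520. The last SD is far smaller than counting error, with exact binomial 95% intervals of 4.25% to 4.57% in pup 1 and 4.28% to 4.56% in pup 2. Mir335 exceeded Mir296, the next in order, by 13.7-fold in pup 1 (95% interval 13.3 to 14.2, exact binomial) and by 14.3-fold in pup 2 (13.9 to 14.8). Apart from Mir296 with Mir298, the intervals of neighbours in the order excluded a ratio of 1 in both pups. With 2 pups, an exact sign-flip test cannot go below p = 0.5, so the order is a description with no test.

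**Figure D2:**
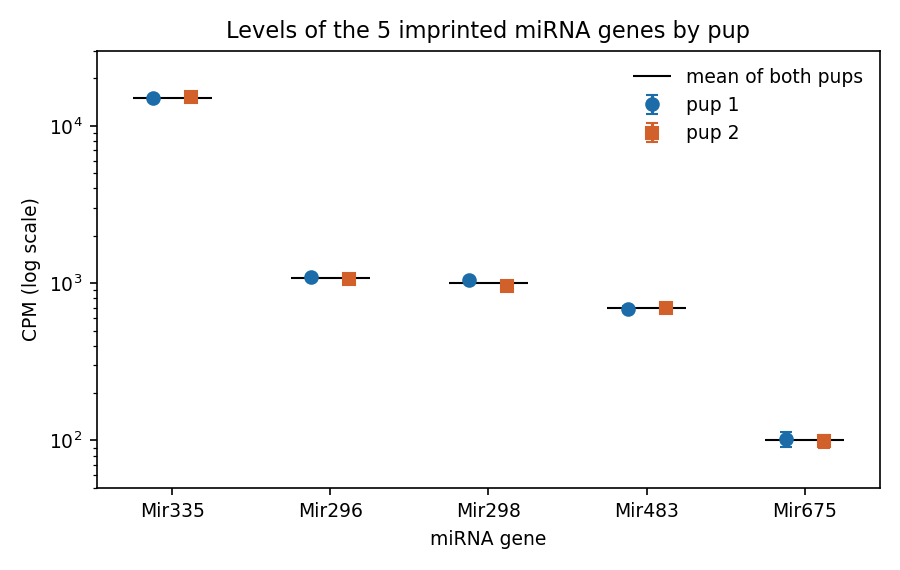
Level of each gene in CPM (vertical axis, log scale) in pup 1 (circles) and pup 2 (squares), with exact binomial 95% intervals as error bars, often hidden by the symbol, and the mean as a line. Mir335 stands at about 15108 CPM, Mir296 and Mir298 near 1077 and 1002, Mir483 at 693 and Mir675 at 100.1, and the pups lie close together for every gene.

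Reads of the members came almost entirely from the annotated strand. Of 148479 reads on either strand of the 5 genes in both libraries, 2 lay on the opposite strand, both at Mir335 in pup 2. Such purity was common: 304 of the 314 genes with at least 10 counts in each library had fewer than 3 opposite-strand counts in each.

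The genes nearest to each member in level, by the distance over log2(CPM + 1) in the 2 libraries, were from various loci. Nearest to Mir335 were Mir23b (14334 ± 704 CPM, distance 0.14) and Mir10a (18882 ± 1385 CPM, distance 0.47). Nearest to Mir296 were Mir92-1 (1074 ± 26.6 CPM, distance 0.01) and Mir137 (1052 ± 26.3 CPM, distance 0.05), and its chromosomal neighbour Mir298 was not among the 2 nearest. Nearest to Mir298 were Mir708 (986 ± 84.9 CPM, distance 0.05) and Mir455 (990 ± 1.77 CPM, distance 0.09). The nearest to Mir483 lay farther off, with Mir154 (747 ± 104 CPM) at a distance of 0.26 and Mir148a (803 ± 59.1 CPM) at 0.31. Nearest to Mir675 were Mir665 (99.4 ± 4.46 CPM, distance 0.04) and Mir490 (105 ± 0.101 CPM, distance 0.11). Over 2 libraries this distance mostly reflects the mean level.

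Other imprinted miRNA genes were taken by position. Between Dlk1 and Dio3 on chromosome 12, 43 of 59 genes, taken on either strand, reached 10 counts in each library. Many miRNAs of this domain come from the maternal allele, but the set also holds minus-strand genes such as Mir3071. Within Sfmbt2 on chromosome 2, whose intron carries a large repeated miRNA cluster, 8 of 107 did and 89 had 0 counts in both. The repeated copies of that cluster lose reads that map to several places, so its counts are lower limits.

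Among these 171 imprinted genes, members included, Mir335 had the highest mean level in reads with a single match, to which every place and share given for this set is limited. Mir296 stood at place 10, Mir298 at 11, Mir483 at 15 and Mir675 at 35. The 2 highest genes between Dlk1 and Dio3 were Mir411 (6341 ± 1572 CPM) and Mir127 (3762 ± 417 CPM), and 8 genes there exceeded Mir296. The 2 highest of Sfmbt2 were Mir467d (531 ± 73.7 CPM) and Mir467e (414 ± 33.5 CPM), both below Mir483. The 5 members held 37.6% ± 3.37 of the counts of the 171 genes, a share that reads lost from Sfmbt2 copies would lower, and the genes between Dlk1 and Dio3 took 2.86% ± 0.390 of all counts.

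**Figure D3:**
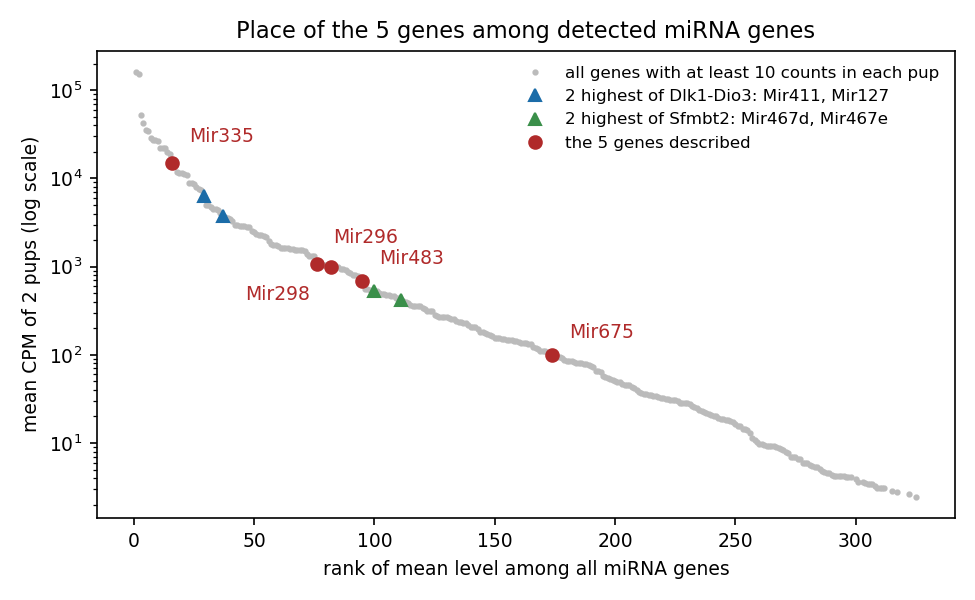
Mean level over the 2 pups in CPM (vertical axis, log scale) against the rank among all miRNA genes (horizontal axis), for the 314 genes with at least 10 counts in each library (grey). The 5 members (red) stand at ranks 16, 76, 82, 95 and 174; triangles are the 2 highest genes between Dlk1 and Dio3 (blue) and within Sfmbt2 (green).

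The littermates differed little in these genes. Log2 ratios of pup 2 over pup 1, scaled by TMM (edgeR's trimmed mean of M-values), ran from -0.08 to 0.07 over the 5 members. Their median was 0.01, against 0.00 over all 314 genes tested. TMM was estimated on these same 314 genes and centres them near 0, so the second median follows largely from the scaling. The median absolute log2 ratio was 0.07 in the members and 0.18 over all genes tested. Counting noise is larger in genes with fewer counts, and the genes tested were not matched to the members in level. By a 2-sided exact binomial test of the counts, adjusted over all genes by Benjamini-Hochberg, 2 of 5 members differed between the libraries, against 41.1% of all genes tested, a share near the background. The test sets the distance between 2 libraries against counting noise and contains no replicate of either.

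Mir335 was higher in pup 2 by a log2 ratio of 0.07 (95% interval 0.06 to 0.09; adjusted p = 3.73e-17, exact binomial), a 1.05-fold difference. The size depended on scaling beyond that interval: the log2 ratio of Mir335 was 0.03 with total counts (adjusted p = 0.0017, exact binomial) and 0.11 with upper-quartile scaling, higher in pup 2 each time. Mir483 had the same log2 ratio, 0.07, with a wider interval of -0.01 to 0.15 and an adjusted p of 0.147 by the exact test. With upper-quartile scaling it was called higher in pup 2 (adjusted p = 0.0111, exact binomial). Mir335 had 21.8 counts for each count of Mir483 in both pups. The exact binomial 95% interval was 20.9 to 22.7 in pup 1 and 21.1 to 22.6 in pup 2. Mir296 over Mir675 was 10.75 in pup 1 and 10.78 in pup 2. Of all pairs of members, these 2 had the least spread, with SDs of the log2 ratio of 0.001 and 0.004. The other pairs had SDs from 0.04 to 0.11. For Mir335 over Mir483 the pups lay closer together than their counting intervals can resolve. A link between the genes of either pair was not tested.

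Mir298 was lower in pup 2, with a log2 ratio of -0.08 (95% interval -0.14 to -0.02; adjusted p = 0.0362, exact binomial), and this call was lost with upper-quartile scaling (adjusted p = 0.415, exact binomial). Its neighbour Mir296 had a log2 ratio of 0.01 (-0.05 to 0.07; adjusted p = 0.916, exact binomial). The share of Mir296 in the counts of the pair was 51.1% in pup 1 (95% interval 49.95% to 52.2%, exact binomial) and 52.6% in pup 2 (51.5% to 53.6%), which needs no scaling between libraries, and the intervals overlap. Mir675 had a log2 ratio of 0.00 with the widest interval, -0.20 to 0.20, as its counts were the fewest (adjusted p = 1, exact binomial). The signs of Mir296 and Mir675 were not settled, since both turned below 0 with total-count scaling.

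As a spread, the SD over the pups was taken on CPM, which scales to total counts without TMM. It was 1.32% of the mean for Mir483, 1.40% for Mir335, 1.75% for Mir296, 2.00% for Mir675 and 5.93% for Mir298. The median over the 314 genes, not matched to the members in level, was 8.83%. The order of the members depended on scaling. With TMM, Mir675 and Mir296 had the smallest log2 ratios, 0.00 and 0.01, while Mir335, Mir483 and Mir298 had 0.07, 0.07 and -0.08. Between 28 and 45 of the 314 genes had a smaller relative SD than Mir483, Mir335, Mir296 and Mir675, and 111 had a smaller one than Mir298. In the other imprinted groups, 19 of 43 genes tested between Dlk1 and Dio3 were called lower in pup 2 and 1 higher, with a median log2 ratio of -0.15, and 4 of 8 genes of Sfmbt2 were called lower, with a median of -0.24. Over all genes tested, 19.7% were called lower and 21.3% higher. No test of the difference between these groups and the 5 members was made. Over the same libraries the summed level of the 9 epithelial markers went from 28.7% of counts in pup 1 to 33.3% in pup 2, that of the 2 smooth muscle markers from 18.1% to 15.0%, and the liver marker Mir122 from 103 counts to 58. Genes of a list moved unequally. With TMM, epithelial log2 ratios ran from 0.03 for Mir429 to 0.39 for Mir194-1. Of the smooth muscle markers, Mir143 had -0.23 and Mir145a 0.00. The 3 erythroid markers summed to 101 CPM in pup 1 and 148 CPM in pup 2, but they did not move together. Mir451a went from 60.3 to 110 CPM (215 and 515 counts), while Mir144 went from 39.8 to 35.7 CPM. Mir486 had 4 and 10 counts. The largest log2 ratios of all genes tested were those of Mir196b, -4.91 (7337 and 310 counts), and Mir196a-2, -3.31 (272 and 35 counts). The labels name no gut segment, and whether both libraries hold the same stretch of gut was not tested. The part of these genes and lists in the members' values was not tested either.

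**Figure D4:**
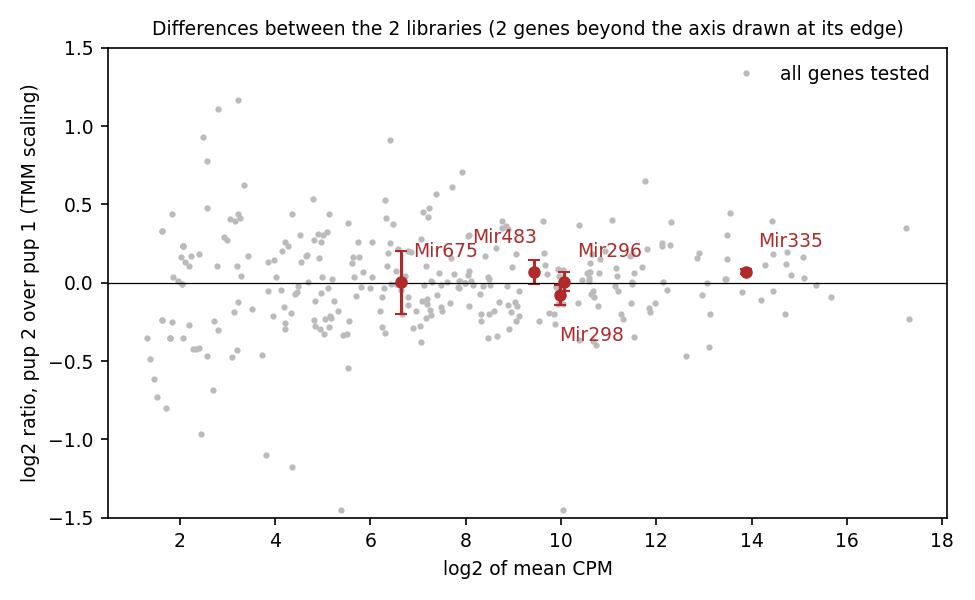
Log2 ratio of pup 2 over pup 1 with TMM scaling (vertical axis) against log2 of the mean CPM (horizontal axis) for the 314 genes tested (grey). The 2 genes beyond the axis, Mir196b (-4.91) and Mir196a-2 (-3.31), are drawn at its edge. The 5 members (red, with exact binomial 95% intervals) lie between -0.08 and 0.07.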

How the data were processed

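Read counts per miRNA gene were deposited by the authors for each library, made on mm10 with GENCODE M4 per the text deposited beside the counts; aligner and counter are not given in the sources used here. From their sums, the columns hold reads on either, the annotated and the opposite strand; the annotated strand was used. The 4 totals of reads in no gene stayed out of library sizes. Symbols came from GENCODE M21 (GRCm38, the same assembly) for 1894 of 1973 identifiers; the other 79 held 0 counts.

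Libraries were scaled by TMM (edgeR 4.0.16) and compared per gene with at least 10 counts in each by the exact binomial test (SciPy 1.17.1, threshold 0.05 after adjustment). The code of the test was tried on simulated Poisson counts with the true library ratio supplied. That simulation held no repeated copies, no random spread between animals and no error of scaling, so it cannot show how the test behaves under these. DESeq2 1.42.0 gave size factors as an alternative. Other alternatives were total-count and upper-quartile scaling, other count minimums, counts ignoring strand, all reads as denominator and counts per length.

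Named were the 5 members, the 2 genes nearest each in level, the 2 highest of each other imprinted group, genes sharing a seed (none) and the highest gene. Mir196b and Mir196a-2 were named afterwards, for their log2 ratios. Members and lists were chosen with earlier results of these data known. Of the marker lists, Mir142 and Mir9-1 matched no symbol.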

Additional observations from a re-analysis of the deposited data

How the results depend on the processing

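No paired analysis was possible because the series has 1 group. With all reads of a library as the denominator, the share of the 5 genes was 1.01%, and the levels were 8453 counts per 1000000 reads for Mir335, 603 for Mir296, 561 for Mir298, 388 for Mir483 and 56.0 for Mir675. With counts that ignore strand, the share was 1.74% and the levels were 14599 CPM for Mir335, 1041 for Mir296, 670 for Mir483 and 96.7 for Mir675. Without Mir143 in the denominator the share was 2.14%. These shifts follow from the larger or smaller denominators. Divided by gene length, Mir335 held 80.8% of the members' counts, and the mean log2 ratio was 3.50 for Mir335 over Mir296, 0.36 for Mir298 over Mir483 and 2.995 for Mir483 over Mir675. Log2 ratios of pup 2 over pup 1 near 0 turned sign: Mir675 had -0.0408 with total counts, -0.000199 with DESeq2 size factors and -0.00851 over any gene with a count, and Mir296 had -0.0358 with total counts and -0.00346 over any gene with a count. Of all genes called, 51.9% were higher in pup 2, but 41.7% with total counts and 64.6% with upper-quartile scaling. With upper-quartile scaling the 2 members called were Mir335 and Mir483, both higher in pup 2, in place of Mir335 and Mir298; 2 members were called under each of the other alternatives too. Leaving out either pup gives the other pup's value, printed above for the level of each of the 5 genes, their summed share and the ratios of neighbours in the order, and leaves no comparison between pups. Depth limits Mir675 most, whose interval allows log2 ratios from -0.20 to 0.20.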

Other observations

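The remaining marker lists describe the tissue around these miRNAs. Endothelial Mir126a had 52213 ± 3424 CPM (n = 2). The summed level was 460 ± 32.9 CPM for the 2 leukocyte miRNAs found, 351 ± 5.68 CPM for the 4 of skeletal and cardiac muscle, 124 ± 32.9 CPM for the 3 of erythroid cells and 0.814 ± 0.358 CPM for the 3 of exocrine pancreas. The 5 neuronal genes found summed to 1.10 ± 1.16 CPM, and 4 of them had 0 counts in both libraries. Several neuronal miRNAs have more than 1 gene copy, and reads with several matches in the genome entered no gene's count, so those counts are lower limits.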
